A study of Homo sapiens with 12 samples.

Results

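*MUC16*, *FXYD2*, the readthrough gene *FXYD6-FXYD2* and *MAB21L2* were followed through all 12 libraries of HLE cells, a human hepatocellular carcinoma line. They were chosen from measured values, as genes among the largest increases with siRNA against YAP and TAZ that were lower with siRNA against ATF4 under Sorafenib. They are 4 of the 26258 Entrez identifiers in the deposited table and all 4 passed the filter on low values, at least 1 CPM (reads per 1000000 reads on genes) in at least 2 libraries. *FXYD2* and *FXYD6-FXYD2* share exons and gave nearly the same reads, so the 4 identifiers stand for 3 loci. The values of the comparisons that chose them are given as a description, with no test.

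*MUC16* encodes a very large membrane-bound mucin, the source of the serum antigen CA-125, whose heavily O-glycosylated ectodomain covers ocular, airway and reproductive tract epithelia and mesothelium and is shed into body fluids. *FXYD2* encodes the gamma subunit of the Na,K-ATPase, a small single-pass membrane protein best known from the kidney tubule, where it tunes the affinity of the sodium pump for its ions. *MAB21L2* encodes a protein of the MAB21 family required for eye and body wall development. YAP and TAZ are co-activators that the Hippo pathway holds back and that act on DNA through TEAD factors. ATF4 is a bZIP factor whose translation rises when eIF2alpha is phosphorylated, and it drives genes of amino acid supply and stress adaptation.

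The cells were transfected with control siRNA (siCtrl), with siRNAs that target YAP plus TAZ (siY/T), or with siRNA targeting ATF4 (siATF4), and cultured in the vehicle DMSO or in the kinase inhibitor Sorafenib (Srf), 2 libraries in each of the 6 groups. The labels give 5 µM Sorafenib and no duration, while the study's legends give another concentration. The study's methods describe RNA from biological triplicates, whereas 2 libraries per group are labelled. The labels do not say whether the libraries of a group came from separate cultures, so p-values measure the spread between these samples. All groups are HLE cells for which no other genetic change is labelled, and every one carries a transfected siRNA, so there was no untransfected control. A library held 41408348 to 53619732 reads on genes, and the libraries of a group differed beyond counting noise, with the widest gap in siY/T DMSO cells (chi-square of 20.7 per gene, against 2.98 in siCtrl DMSO). The siRNA targets were lower where labelled. *YAP1* was 5.34-fold and 5.58-fold lower with siY/T in DMSO and in Srf, *WWTR1* (TAZ) 2.81-fold and 2.88-fold lower, and *ATF4* 2.52-fold and 5.57-fold lower with siATF4. Across the arms, *WWTR1* was also lowered by siATF4 in DMSO (log2 difference -0.70, adjusted p = 1.29e-05 by limma with Benjamini-Hochberg adjustment), and *ATF4* by siY/T in Srf (-0.63, adjusted p = 1.84e-07 by the same limma fit).

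The FXYD locus matters for what was measured, and its coding sequence is shown here for that reason. On GRCh37, the build of the deposited values (hg19), *FXYD2* (Entrez 486) lies on the minus strand at chr11:117671559-117699413 and *FXYD6* (Entrez 53826) upstream of it at chr11:117707691-117748201. The readthrough (Entrez 100533181) spans chr11:117690878-117747382 and joins them. Of its 782 exon bases, 392 were also in *FXYD2* exons (50.13%) and 390 in *FXYD6* exons (49.87%), and *FXYD2* and *FXYD6* shared 0. These exons are those of the GENCODE annotation, whereas the authors counted reads over RefSeq exons. The exons counted for each identifier may therefore differ from those given here. The longest coding exon common to *FXYD2* and the readthrough, and the *FXYD6* coding exon of equal length, are written 5′ to 3′ on the coding strand, with capitals at the 49 of 75 positions (65.33%) where both genes carry the same base.
FXYD2 and FXYD6-FXYD2, chr11:117693121-117693195: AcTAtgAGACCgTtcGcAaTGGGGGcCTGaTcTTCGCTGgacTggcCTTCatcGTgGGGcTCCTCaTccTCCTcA
FXYD6, chr11:117712506-117712580: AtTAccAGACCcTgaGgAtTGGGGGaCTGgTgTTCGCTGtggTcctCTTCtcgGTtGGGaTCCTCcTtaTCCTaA
The first sequence belongs to both *FXYD2* and the readthrough, and the second differs from it at many positions. The exon of the second sequence is not in *FXYD2*, but the readthrough transcript carries it as well as *FXYD6*. The second sequence thus sets *FXYD6* apart from *FXYD2* and not from the readthrough.

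**Figure D1:**
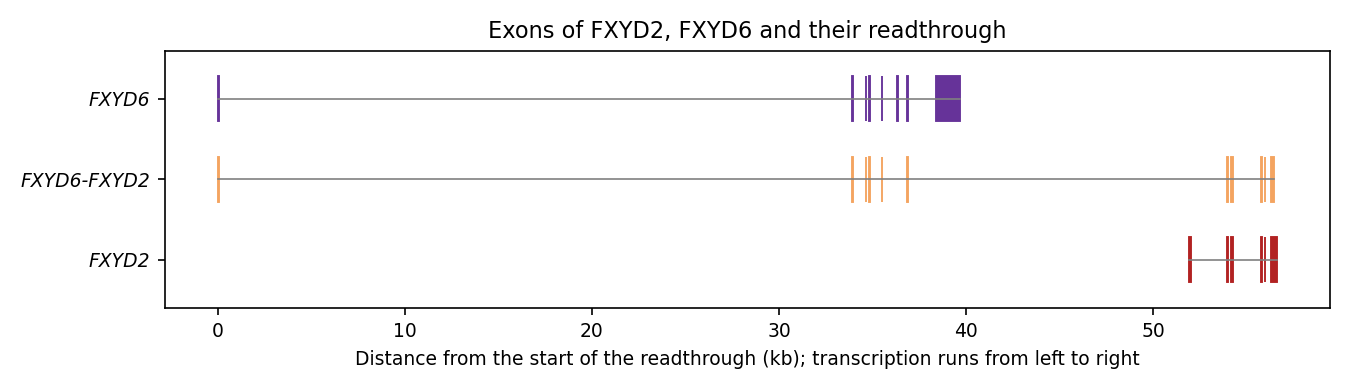
Exons in the GENCODE annotation of the canonical transcripts of *FXYD6* and *FXYD2* and of a readthrough transcript (boxes) and introns (lines), by distance in kb from the start of the readthrough, with transcription from left to right. The readthrough takes its first exons from *FXYD6* and its last exons from *FXYD2*, and no exon of *FXYD2* is shared with *FXYD6*.

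*MUC16* (Entrez 94025) lies on the minus strand at chr19:8959520-9121066 of GRCh37, with 84 exons in its canonical transcript. The RefSeq promoter table (GRCh38.p14) held windows at different starts for it, and the 250 bases upstream of each start are shown because *MUC16* had the widest range of levels of the 4 identifiers.
MUC16, chr19:9065752-9066001, minus strand: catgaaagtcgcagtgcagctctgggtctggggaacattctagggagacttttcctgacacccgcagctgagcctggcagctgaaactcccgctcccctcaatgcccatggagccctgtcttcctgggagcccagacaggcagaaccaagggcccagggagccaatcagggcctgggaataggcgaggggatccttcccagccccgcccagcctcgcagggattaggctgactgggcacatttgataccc
MUC16, chr19:9010410-9010659, minus strand: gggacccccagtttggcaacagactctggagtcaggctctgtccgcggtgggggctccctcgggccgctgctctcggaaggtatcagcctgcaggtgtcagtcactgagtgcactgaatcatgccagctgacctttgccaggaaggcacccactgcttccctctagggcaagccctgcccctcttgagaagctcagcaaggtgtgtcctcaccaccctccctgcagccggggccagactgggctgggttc
On both strands, these windows held neither CATTCC (the TEAD motif, in 11.89% of 35116 windows of this length), nor TGATGCA (the amino acid response element core, 2.164%), nor TGACTCA (AP-1, 4.203%), so no letters are in capitals. The same was true of the window of *FXYD6-FXYD2*. *FXYD2* and *MAB21L2* had no entry in the table.

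The level of *MUC16* in siCtrl cells was 17.1 and 29.5 CPM in DMSO and 106 and 138 CPM in Srf. In siY/T cells it was 179 and 291 CPM in DMSO and 383 and 348 CPM in Srf. In siATF4 cells it was 1.16 and 0.911 CPM in DMSO, from 54 and 46 reads, and 6.98 and 4.71 CPM in Srf. All siY/T libraries were therefore above, and all siATF4 libraries below, every siCtrl library, and no groups overlapped. How many other genes had groups without overlap was not counted. From the lowest to the highest, the group means were 1.03 ± 0.174 CPM (SD, n = 2) in siATF4 DMSO, 5.84 ± 1.60 in siATF4 Srf, 23.3 ± 8.79 in siCtrl DMSO, 122 ± 22.6 in siCtrl Srf, 235 ± 79.2 in siY/T DMSO and 365 ± 24.7 in siY/T Srf, a range of 353-fold.

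With siY/T, the mean of *MUC16* was 10.1-fold higher in DMSO and 3.01-fold higher in Srf, differences of 3.32 and 1.59 in log2(CPM + 0.5) with a standard error of 0.251. With siATF4 in Srf it was 20.8-fold lower, a log2 difference of -4.28. Sorafenib went with a higher level in each siRNA arm, 5.21-fold in siCtrl, 1.55-fold in siY/T and 5.65-fold in siATF4 cells. The siY/T value of that contrast (log2 difference 0.67) depended on the wide siY/T DMSO pair, since it was 0.32 without the first of those libraries and 1.02 without the second.

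*FXYD2* in siCtrl cells was at 1.53 and 2.02 CPM in DMSO and at 6.51 and 6.13 CPM in Srf. In siY/T cells it was at 18.6 and 17.7 CPM in DMSO and at 34.2 and 38.8 CPM in Srf. In siATF4 cells it was at 0.193 and 0.258 CPM in DMSO, from 9 and 13 reads, and at 0.740 and 0.492 CPM in Srf, from 39 and 23 reads. The 6 groups stood in the same order as for *MUC16*, without overlap, over a range of 162-fold. The siY/T mean was 10.2-fold higher than siCtrl in DMSO and 5.78-fold higher in Srf, log2 differences of 3.05 and 2.44 with a standard error of 0.128. The siATF4 mean was 10.3-fold below siCtrl in Srf, a log2 difference of -2.62. With Sorafenib the mean was 3.56-fold higher in siCtrl, 2.01-fold higher in siY/T and 2.73-fold higher in siATF4 cells. At so few reads, the added 0.5 CPM shortens the log2 differences of the siATF4 groups.

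*FXYD6-FXYD2* followed *FXYD2* read for read. In siY/T DMSO cells it had 968 and 744 reads where *FXYD2* had 955 and 734, and in siATF4 DMSO cells 9 and 14 where *FXYD2* had 9 and 13. Over the 12 libraries the readthrough had between 4 reads fewer and 19 reads more than *FXYD2*, a ratio of 0.956 to 1.08 with a median of 1.01. Its log2 differences were 3.06 and 2.42 with siY/T in DMSO and Srf and -2.68 with siATF4 in Srf. The values therefore cannot show how much readthrough RNA was made, and both identifiers are described as 1 measurement.

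*FXYD6*, which encodes a regulator of the same pump and is none of the chosen identifiers, was counted under its own identifier at this locus. Some of its exon bases are shared with the readthrough, so the reads counted for it may include readthrough RNA. *FXYD6* had 31 and 21 reads in siCtrl DMSO, 152 and 106 in siY/T DMSO and 2 and 5 in siATF4 DMSO, and with Srf 106 and 97, 227 and 214, and 8 and 4. *FXYD2* had 2.6 to 7.76 times as many reads. *FXYD6* rose with siY/T (log2 difference 1.67, adjusted p = 1.69e-07 in DMSO, and 1.09, adjusted p = 1.16e-05 in Srf, by limma with Benjamini-Hochberg adjustment) and fell with siATF4 (-0.84, adjusted p = 4.69e-05 in DMSO, and -2.05, adjusted p = 7.57e-09 in Srf, same fit). Its siATF4 libraries held 2 to 8 reads each, so these sizes rest on few counts, and the call in DMSO was lost with a pseudocount of 1 (-0.51) and with quantile normalization (-0.45). Sorafenib raised *FXYD6* in siCtrl and siY/T cells (1.32 and 0.74), while in siATF4 cells the libraries overlapped (0.12).

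*MAB21L2* (Entrez 10586), a gene of 1 exon on the plus strand at chr4:151503303-151505845, had a different course with the drug. In siCtrl cells it was at 8.36 and 8.81 CPM in DMSO and at 5.28 and 5.23 CPM in Srf. In siY/T cells it was at 32.9 and 31.9 CPM in DMSO and at 31.7 and 34.7 CPM in Srf. In siATF4 cells it was at 1.93 and 1.60 CPM in DMSO and at 1.99 and 1.93 CPM in Srf. The siRNA arms were apart from each other in both media, but within the siY/T arm and within the siATF4 arm the DMSO and Srf libraries overlapped. The siY/T mean was 3.78-fold above siCtrl in DMSO and 6.31-fold above it in Srf, log2 differences of 1.86 and 2.55 with a standard error of 0.0852. With siATF4 in Srf it was 2.68-fold lower, a log2 difference of -1.23. Sorafenib went with a lower level in siCtrl cells (log2 difference -0.66, no overlap) and with 0.03 in siY/T and 0.12 in siATF4 cells. The larger siY/T difference in Srf than in DMSO thus came with a lower siCtrl level, at nearly equal siY/T levels.

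**Figure D2:**
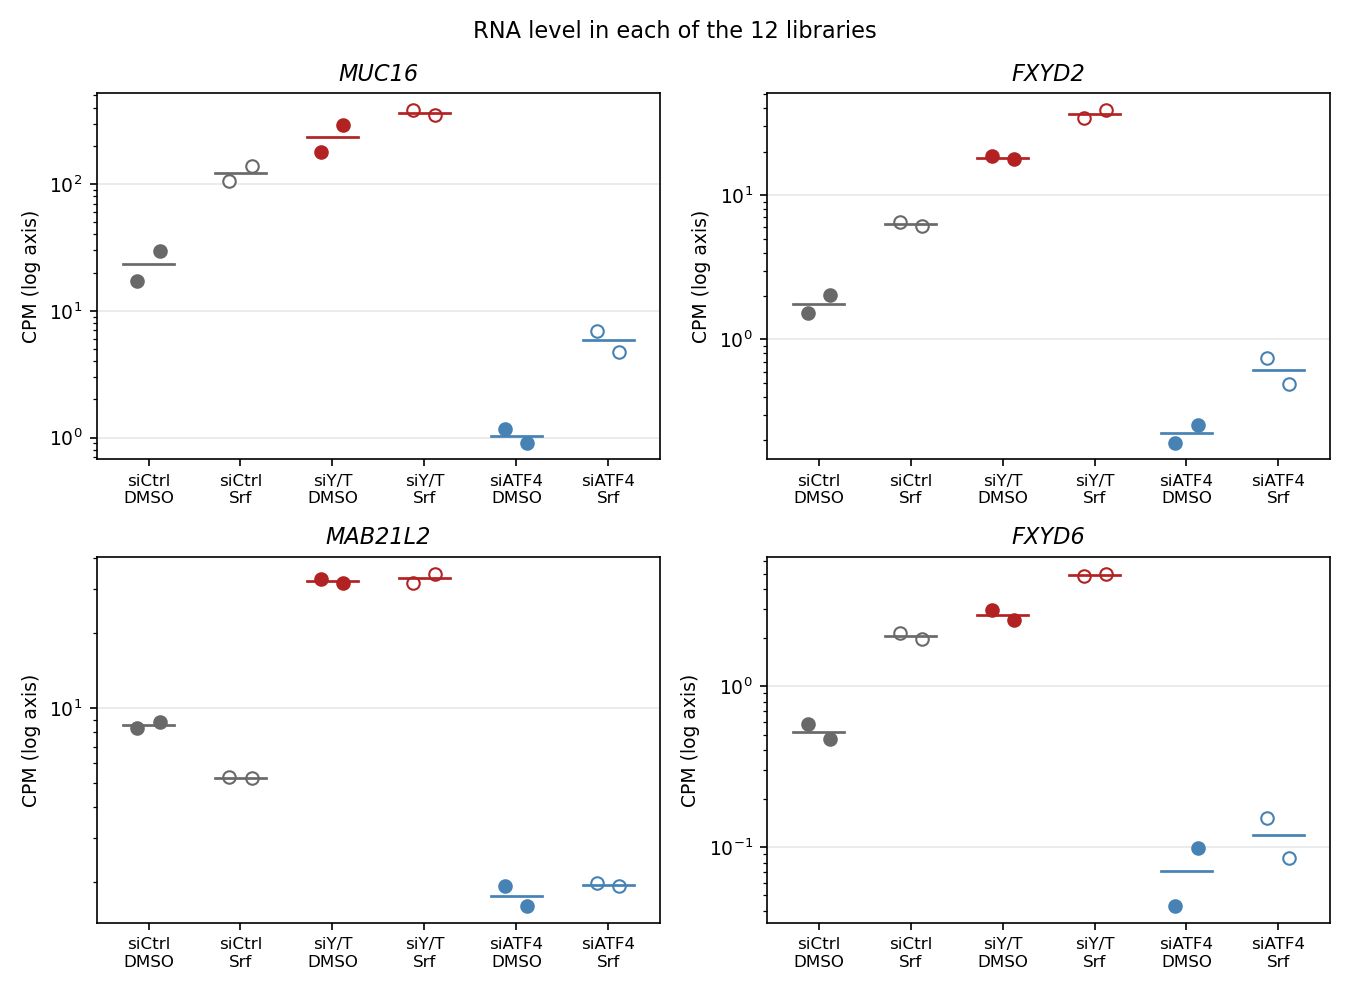
CPM of *MUC16*, *FXYD2*, *MAB21L2* and *FXYD6* in each library on log axes, by group, with filled points for DMSO, open points for Srf and a line at the mean of 2 libraries. The siY/T libraries lie above and the siATF4 libraries below siCtrl in every panel, and *MAB21L2* alone of the 4 has a lower siCtrl level with Srf.

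The siATF4 DMSO libraries had no part in the choice of the genes, whereas their siCtrl DMSO controls had, and this comparison was tested. All 4 identifiers (3 loci) were lowered, at a background of 14.1% of the 13515 genes tested that were lowered in it at an unadjusted P under 0.05 and an absolute log2 difference of at least 0.58. Among the 426 genes that siY/T raised in both media and siATF4 lowered in Srf, 303 were also lowered by siATF4 in DMSO. Most genes with this pattern thus fell in DMSO too. The falls of the 4 identifiers, which are among the 303, are therefore not independent of the choice, and the 14.1% is no measure for genes so chosen. *MUC16* was 22.6-fold lower in mean CPM (log2 difference -3.91, standard error 0.251, adjusted p = 2.1e-08 by limma with Benjamini-Hochberg adjustment). This was rank 1 of the falls on the log2(CPM + 0.5) scale, which shortens the falls of genes with little signal left, and *KCNJ16*, with 0.0726 against 5.11 CPM, was 70.4-fold lower in mean CPM. *FXYD2* was 7.88-fold lower (-1.64, standard error 0.128, adjusted p = 1.34e-07 in the limma fit), and the readthrough had -1.63. *MAB21L2* was 4.86-fold lower (-2.01, standard error 0.0852, adjusted p = 4.45e-10 in the limma fit). Both siATF4 libraries lay below both siCtrl libraries for each. With 2 libraries per group, this also held for genes that were not called, such as *GALNT16* (-0.16). The share of all tested genes without overlap was not counted. *FXYD2* and the readthrough were at ranks 194 and 195 among the falls and *MAB21L2* at rank 89. In these bulk samples, fewer cells that make a transcript and less of it per cell cannot be told apart.

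**Figure D3:**
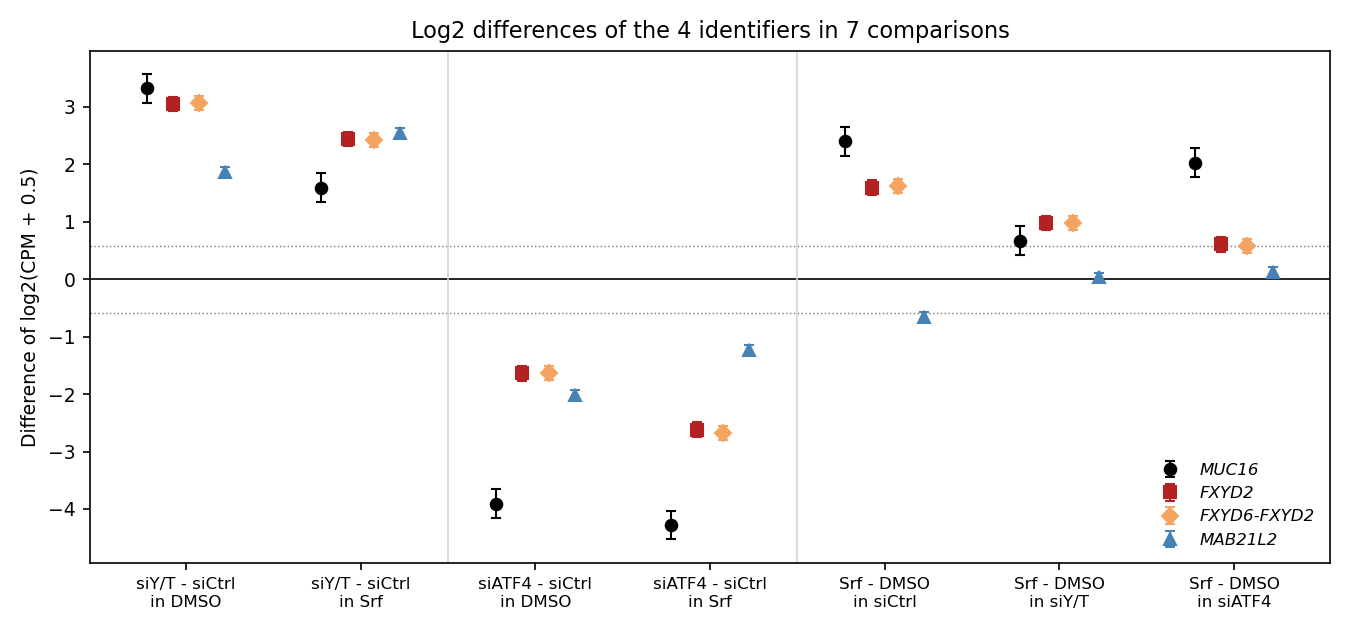
Difference of log2(CPM + 0.5) with its standard error for the 4 identifiers in 7 comparisons, with dotted lines at 0.58 and -0.58. The siY/T differences are all positive and the siATF4 differences all negative, from 3.32 to -4.28 for *MUC16*, while the Sorafenib differences of *MAB21L2* run from -0.66 to 0.12.

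Levels were compared between genes per kb of canonical transcript, 43816 bases for *MUC16*, 589 for *FXYD2* and 2543 for *MAB21L2*. On this scale *MAB21L2* was at 3.38 CPM per kb in siCtrl DMSO cells, *FXYD2* at 3.01 and *MUC16* at 0.532. In siY/T Srf cells *FXYD2* reached 62.0, *MAB21L2* 13.1 and *MUC16* 8.34 CPM per kb, and in siATF4 DMSO cells the values were 0.382, 0.695 and 0.0236. The many reads of *MUC16* thus belonged to a transcript of low level per length.

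Among all tested genes, ordered by difference on the log2(CPM + 0.5) scale, *MUC16* was at rank 1 of the increases with siY/T in DMSO and of the decreases with siATF4 in Srf. *FXYD6-FXYD2* and *FXYD2* were at ranks 2 and 3 of the siY/T increases in DMSO, and *MAB21L2* at rank 37 there and at rank 1 in Srf. The order differed in mean CPM. With siY/T, *FXYD2* rose 10.2-fold in DMSO against 10.1-fold for *MUC16*, and *SLIT2* 6.55-fold in Srf against 6.31-fold for *MAB21L2*. With siATF4 in Srf, *AKR1C3* was 23.1-fold lower (26 and 16 reads) against 20.8-fold for *MUC16*. The siY/T difference of *MUC16* in DMSO was 2.93 to 3.70 with a library left out. In DMSO, siY/T raised 1485 genes (11.0%) and lowered 488, so that 24.7% of its calls were lowered, a share of 43.0% with quantile normalization. In Srf, siATF4 lowered 2525 genes (18.7%) and raised 1386, with 64.6% of its calls lowered against 51.5% with quantile normalization. There were 961 genes called in both of these directions, and 477 of the 826 genes raised by siY/T in Srf (6.11%) were lowered by siATF4 there, a comparison that shares its siCtrl libraries with the siATF4 one. Just after *FXYD2* in the siY/T DMSO order of the 961 came *GGT1* (2.76 with siY/T in DMSO and -2.96 with siATF4 in Srf), a cell surface enzyme that cleaves glutathione, and *BRINP1* (2.65 and -1.55). *GGT1* has near-identical copies in the genome, so its reads are uncertain. Just after *MAB21L2* in the Srf order of the 477 came *SLIT2* (2.54 and -1.04), a secreted guidance cue, named after its values were seen.

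**Figure D4:**
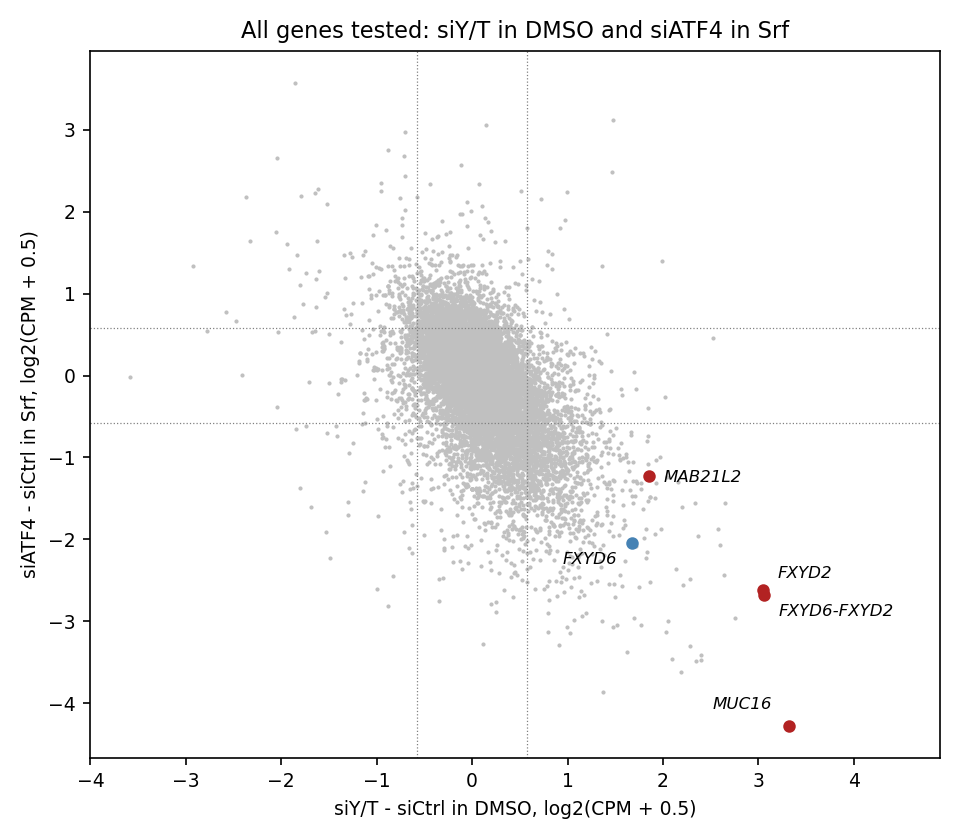
Log2 differences of all 13515 tested genes with siY/T in DMSO (x axis) and with siATF4 in Srf (y axis), with dotted lines at 0.58 and -0.58. The 4 chosen identifiers (red) lie at the lower right, with *MUC16* at 3.32 and -4.28. *FXYD6* (blue) lies at 1.67 and -2.05, with a larger fall than *MAB21L2* at 1.86 and -1.23.

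Of 72 related genes written down by family, 35 passed the filter. In siATF4 DMSO cells 3 of the 35 were raised and 14 lowered (48.57% called, against 22.7% of all tested genes, median log2 difference -0.17 against 0.00 of all). With siATF4 in Srf 2 were raised and 13 lowered (42.86% against 28.9%, median -0.30 against -0.01). With siY/T 8 were raised and 1 lowered in DMSO (25.71% against 14.6%, median 0.22 against 0.07), and 7 and 3 in Srf (28.57% against 9.95%, median 0.13 against 0.05). With Sorafenib 5 were called in siCtrl cells (14.29% against 17.5%), 2 in siY/T cells (5.714% against 9.97%) and 6 in siATF4 cells (17.14% against 8.63%).

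The other mucins were few. Of 10 membrane mucins, *MUC1* and *MUC15* were tested and the other 8 did not exceed 0.217 CPM in any library. All 5 gel-forming mucins stayed at or under 0.141 CPM. *MUC1*, an epithelial cell surface mucin, was at 3.53 and 4.15 CPM in siCtrl DMSO and at 2.27 and 1.90 CPM in siATF4 DMSO cells, and fell with siATF4 in DMSO (-0.75, adjusted p = 3.61e-05 by limma with Benjamini-Hochberg adjustment) and in Srf (-1.15, adjusted p = 4.55e-07 by limma). With siY/T it had log2 differences of 0.59 in DMSO, a call lost under 5 of 23 alternatives (0.48 without the first siCtrl DMSO library), and 0.01 in Srf. *MUC15* rose with siY/T in Srf, from 3.71 and 3.70 to 10.4 and 9.05 CPM (1.28, adjusted p = 2.63e-05 by limma), and fell with siATF4 in DMSO by a small margin (-0.63, adjusted p = 0.00353 by limma), a call lost under 4 of 23 alternatives, with -0.42 without the second siCtrl DMSO library and -0.51 without the second siATF4 DMSO library. Neither mucin approached the range of *MUC16*.

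Mucin domains are built up by GalNAc transferases (GALNT), which place the first sugar on serine and threonine, and by enzymes that branch or cap the chain. Of 29 such enzymes 17 were tested, and siATF4 lowered 7 and raised 2 in DMSO and lowered 7 and raised 0 in Srf, with medians of -0.16 and -0.43. Of all tested genes siATF4 called 22.7% in DMSO (14.1% lowered) and 28.9% in Srf (18.7% lowered), and siY/T 14.6% and 9.95%. With siY/T 4 of the enzymes were raised and 1 lowered in DMSO, and 4 and 3 in Srf, with medians of 0.02 and 0.14. *GALNT10* was at 129 and 129 CPM in siCtrl DMSO, 239 and 245 in siY/T DMSO and 44.5 and 43.0 in siATF4 DMSO. It rose with siY/T (0.91, adjusted p = 5.31e-09 in DMSO by limma) and fell with siATF4 (-1.55, adjusted p = 1.42e-11 by limma). *GCNT3*, which makes branched core structures of mucin glycans, rose with siY/T (1.15 and 0.94 in DMSO and Srf) and fell with siATF4 in DMSO (-0.85), while its value in Srf was -0.57. *GCNT1*, which makes the core 2 branch, fell with siATF4 (-1.42 and -1.23) and with siY/T in Srf (-0.82). *GALNT16* was lowered by siY/T (-0.95 and -1.82). These enzymes did not share 1 direction.

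**Figure D5:**
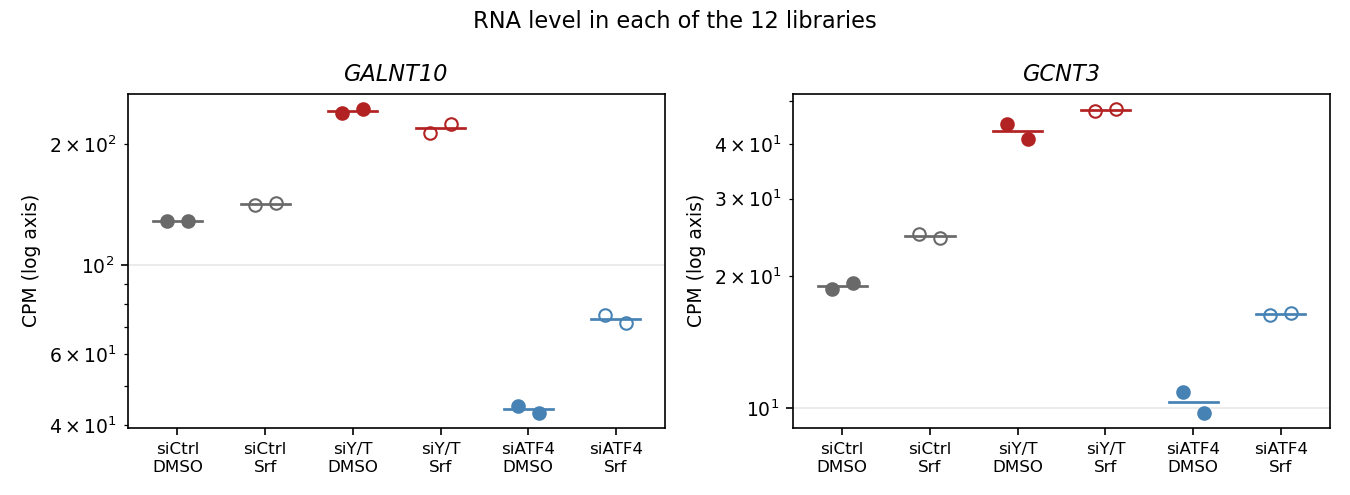
CPM of *GALNT10* and *GCNT3* in each library on log axes, by group, with filled points for DMSO, open points for Srf and a line at the mean of 2 libraries. In both panels the siATF4 groups lie below and the siY/T groups above the siCtrl group of the same medium.

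Among 6 proteins known to bind mucin 16, *MSLN*, its mesothelial ligand, did not exceed 0.282 CPM. *LGALS1* (galectin-1) fell with siATF4 (-0.65 and -0.95 in DMSO and Srf, the first being -0.57 and not called without the second siATF4 DMSO library), *LGALS3* (galectin-3) rose with siY/T in DMSO (0.71), and *EZR*, *RDX* and *MSN*, which tie membrane proteins to actin, were called in none of the 4 depletion comparisons. *RDX* with siY/T in DMSO was at -0.37, and at -0.65, called, without the second siY/T DMSO library.

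Of the 6 other FXYD genes, *FXYD5* and *FXYD6* were tested, and the other 4 stayed at or under 0.0701 CPM. *FXYD5* was not called in any of the 7 comparisons. Of the subunits of the pump itself, *ATP1B1* (65.6 to 97.4 CPM) and *ATP1B3* (146 to 221 CPM), both beta subunits that help the pump reach the cell surface, were called in none of the 4 depletion comparisons.

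Of the other MAB21 family genes, *MAB21L1*, *MAB21L3* and *MAB21L4* stayed at or under 0.0444 CPM. *CGAS*, the DNA sensor, rose with siATF4 in Srf (0.66, or 0.55 and not called without the first siCtrl Srf library), and *MB21D2* fell with siATF4 (-0.67 and -0.65). Neither was called with siY/T.

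*MAB21L2* lies inside *LRBA*, on the opposite strand, and 1491 of its bases are within exons of some *LRBA* transcript, though 0 are within those of the canonical one. The strand setting of the counting is not given in the sources used here. *LRBA* was at 131 CPM in siCtrl DMSO, with log2 differences of -0.02 and 0.13 with siY/T and -0.06 and -0.03 with siATF4, and it was called in none of the 7 comparisons. *DCLK2*, the adjacent gene on 1 side, fell with siATF4 in DMSO (-1.15, adjusted p = 2.57e-09 by limma) and had 0.42 and 0.37 with siY/T and -0.49 with siATF4 in Srf. *RPS3A* was called in none. The genes next to *MUC16* and the FXYD locus, *MBD3L1*, *OR1M1*, *DSCAML1* and *TMPRSS13*, did not exceed 0.0966 CPM.

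Likeness of profiles was measured as the root mean square difference over the 12 libraries between log2(CPM + 0.5) values after removal of each gene's mean. Nearest to *MUC16* were *KCNJ16* (0.633), a subunit of inwardly rectifying potassium channels, *TMT1A* (0.808) and *CD24* (0.870), a small surface glycoprotein, against a spread of 2.87 of *MUC16* itself on the same scale. *KCNJ16* went from 0.0726 CPM in siATF4 DMSO to 47.0 CPM in siY/T Srf cells, and *CD24* from 43.8 to 2132 CPM. The first of these levels rested on 3 and 4 reads, and *CD24* has near-identical copies in the genome, so its reads are uncertain. Nearest to *FXYD2* after the readthrough were *GGT1* (0.346), *MAP2* (0.351), a microtubule protein of neurons, and *AKR1C3* (0.383), an aldo-keto reductase, against a spread of 2.08. Nearest to *MAB21L2* were *AVPR1A* (0.351), a vasopressin receptor, and *EPHA4* (0.364), an ephrin receptor, against a spread of 1.58. *AVPR1A*, like *MAB21L2*, had a lower mean with Srf than with DMSO in siCtrl cells, 2.36 against 3.38 CPM. These genes share libraries with the chosen ones, and the distances are a description.

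The label of a liver cancer line was set against hepatocyte genes. Of 10, *FGB* (fibrinogen) and *SERPINA1* passed the filter, while *ALB*, *AFP*, *APOA1*, *TTR*, *TF*, *HNF4A* and *CYP3A4* did not exceed 0.193 CPM and *APOB* was at 0. *FGB* fell with siATF4 (-2.49 and -1.42) and with siY/T in DMSO (-0.73). *SERPINA1* (alpha-1 antitrypsin), at 0.0214 to 2.32 CPM, rose with siY/T (1.84, adjusted p = 1.12e-06 in DMSO by limma, and 0.87 in Srf) and fell with siATF4 in Srf (-0.73, adjusted p = 0.0016 by limma), with -0.37 in DMSO. Nearly all of the summed hepatocyte markers was *FGB*, and the sum was at 368 to 431 CPM in siCtrl DMSO, 227 to 256 in siY/T DMSO and 68.6 to 72.3 in siATF4 DMSO cells. Of 8 markers of mesothelium and Müllerian epithelium, where *MUC16* is normally made, 7 were matched and *PAX8* and *KRT7* passed, while *MSLN*, *WT1*, *CALB2*, *LRRN4* and *WFDC2* did not exceed 0.282 CPM. Their sum was 15.5 to 17.0 CPM in siCtrl DMSO, 21.7 to 22.2 in siY/T DMSO and 15.5 to 16.9 in siATF4 DMSO cells, and 26.2 to 28.5, 25.6 to 25.9 and 18.7 to 20.1 with Srf. The siATF4 and siCtrl sums overlapped in DMSO and did not in Srf, where *PAX8* was lowered by siATF4 (-0.64, adjusted p = 1.54e-05 by limma). The part of these markers in the *MUC16* values was not tested.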

How the data were processed

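Poly(A) RNA from 12 libraries of HLE cells in 6 groups of 2 was measured. The authors mapped reads to hg19 with STAR (unique hits), counted them over RefSeq mRNA exons with QuasR and deposited CPM, reads per 1000000 reads on genes. All values were whole multiples of 1 read within 0.001 read, so read numbers were recovered; 0 columns were left unmapped. Of 26258 genes, the 13515 that reached 1 CPM in 2 or more libraries were fitted with limma 3.58.1 in R 4.3.3 on log2(CPM + 0.5), 1 coefficient per group over all libraries, with two-sided P and Benjamini-Hochberg adjustment over all genes tested. A change was called at an unadjusted P under 0.05 and an absolute log2 difference of at least 0.58, the study's thresholds. The authors' own test was edgeR. With 41408348 to 53619732 reads per library, 2 libraries per group limit the precision.

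The members and the lists of related genes were chosen with earlier results of these data known. Beside the members, the genes named were the siRNA targets, locus neighbours, tested list members with up to 4 values per list of the largest called changes, the 3 nearest profiles per locus and the 5 largest siY/T increases among oppositely called genes; further list members are named by their counts or levels. Some genes of this rule and 1 motif are not reported here, though the counts over the lists hold those genes. Positions are from GENCODE on GRCh37, and names and promoters from RefSeq GRCh38.p14, which named 26111 identifiers. Alternatives were pseudocounts of 0.1 and 1, no filter, a filter at 5 CPM, TMM, quantile normalization, a replicate block, only the groups compared, adjusted P, edgeR 4.0.16 and DESeq2 1.42.0 on recovered reads, and each library left out. Steps were tested on simulated reads. Figures came from matplotlib 3.10.9 under Python 3.11.15.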

Additional observations from a re-analysis of the deposited data

Results flagged for a closer look

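For the related genes and siRNA targets, the depletion effects in Srf and in DMSO were compared by an interaction term in the limma fit, called at an adjusted p under 0.05 and a size of at least 0.58, which 4.96% of all tested genes passed for siY/T and 12.3% for siATF4. A positive value is a more positive effect in Srf. For *FXYD6*, the neighbour of *FXYD2*, the difference was -0.59 for siY/T (adjusted p = 0.0306 by limma) and -1.21 for siATF4 (adjusted p = 0.000162 by limma), with 2 to 8 reads in the siATF4 libraries. For *MUC15* it was 0.93 with siY/T. Among the glycosylation enzymes it was -0.85 for *GALNT6* and -0.87 for *GALNT16* with siY/T, and with siATF4 0.60 for *GALNT10*, -0.60 for *GALNT16*, -0.58 for *ST3GAL2* and -0.81 for *ST6GALNAC4*. With siATF4 it was 0.66 for *DCLK2*, the neighbour of *MAB21L2*, 0.61 for *WWTR1* and -1.14 for *ATF4* itself, whose siCtrl level was 1.96-fold higher in Srf. The interaction of the 4 chosen identifiers was not tested, because their choice used 3 of the 4 depletion comparisons.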

How the results depend on the processing

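The siATF4 calls of the 4 identifiers in DMSO kept direction and threshold in 92 of 92 results over 11 alternative settings and 12 fits with a library left out. Their log2 differences ranged with a library left out from -4.30 to -3.52 for *MUC16*, -1.80 to -1.49 for *FXYD2*, -1.73 to -1.53 for *FXYD6-FXYD2* and -2.11 to -1.90 for *MAB21L2*, and over the other settings from -4.50 to -3.53, -2.96 to -1.17, -2.90 to -1.17 and -2.28 to -1.79. Differences between replicates 1 and 2 had correlations of -0.28 to 0.19 over 15 pairs of groups. These were 0.04 to 0.19 between groups in the same medium and -0.28 to 0.01 between groups in different media. Whether replicate numbers paired the samples within a medium was not tested. With the replicate block the values were -3.91, -1.64, -1.63 and -2.01, with 3067 genes called against 3068. That block was 1 effect over both media, so it cannot show a pairing within a medium. Of 528 described values under alternatives, 447 stayed within 1 standard error and 81 moved. The *MAB21L2* difference with Sorafenib in siY/T cells, 0.03, ran from -0.03 to 0.10 with a library left out. The *FXYD2* difference with Sorafenib in siATF4 cells ran from 0.39 to 1.43, and with siATF4 in Srf from -3.34 to -2.18, by pseudocount, scaling or tool. The related genes called with Sorafenib in siY/T cells were 1 instead of 2 with a filter at 5 CPM, which tested fewer genes. Few reads limit the siATF4 values of the FXYD genes.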
